A study of Mus musculus with 41 samples.

Results

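The comparison set ex-Foxp3 cells against labeled regulatory T cells (Treg cells) of the same control mice, as 10 of the 41 libraries of the series. The members were taken by their labels, as the 5 control libraries sorted as Foxp3-GFP negative and tdTomato positive and the 5 sorted as positive for both, and each control number gave 1 library of each. All controls had the genotype Uhrf1+/+ Foxp3 GFP-CreERT2 Rosa26Sor CAG-tdTomato, so Uhrf1 was intact. The mice were 8 weeks old, had eaten tamoxifen chow for 2 weeks and then standard chow for 4 weeks. The Foxp3 gene drove both GFP and a Cre that works only with tamoxifen, and Cre switched on a tdTomato mark that a cell keeps. A tdTomato-positive cell without GFP had therefore made the Foxp3-driven Cre during tamoxifen and had no Foxp3-GFP at sorting. Set beside them were the post-tamoxifen cells of the same controls (GFP positive only, n = 5), and ex-Foxp3 and labeled cells of Uhrf1fl/fl mice with the same other alleles and chow (n = 6 each), in which Cre deletes Uhrf1.

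Foxp3 is the transcription factor that defines Treg cells, the CD4 T cells that restrain other immune cells. It keeps the high-affinity IL-2 receptor and inhibitory surface proteins up and effector cytokines down, and its lasting expression relies on unmethylated DNA at its enhancers, while Uhrf1 directs the copying of methylation marks to new DNA strands. Cells that lose Foxp3 after having made it are called ex-Foxp3 cells, and how much of the Treg program they keep is the question this pair of populations addresses.

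Levels are CPM (reads of a gene scaled to a common library total) of the scaled library, given as mean ± SD over 5 mice unless each mouse is listed, always in the order of controls 1 to 5. Changes are log2 fold changes of ex-Foxp3 over labeled cells ± SE from a fit that pairs the libraries of a control, and a gene is said to have risen or fallen where its p, adjusted over all genes, was under 0.05. Total counts were 1589473 to 3435802 in ex-Foxp3 and 1153730 to 2609699 in labeled libraries. In both, the T cell markers Cd3d, Cd3e, Cd3g, Cd247, Cd4, Thy1, Cd5 and Lck were all read, at a summed 4270 to 4542 CPM of the total count in ex-Foxp3 and 3668 to 4490 in labeled cells. Y-linked transcripts were present in both populations of controls 2 and 3 (318 to 434 CPM) and at most 2.33 CPM in those of the other controls. Both libraries of a number thus matched in these reads, which cannot tell control 2 from 3, nor controls 1, 4 and 5 apart. The library labelled post-tamoxifen of control 2 went against its label: it held 123 CPM of Foxp3 against 364 to 536 in the other 4, and 214 CPM of Il2ra against 542 to 943. Its counts differed from those of the ex-Foxp3 library of control 2 beyond counting noise (chi-square per degree of freedom 2.64, against 2.60 or more between libraries of a group). Post-tamoxifen levels below leave it out (n = 4). The ex-Foxp3 library of control 1 lay apart from the other 4 for several genes, and its erythroid and platelet markers summed to 22.98 CPM against at most 1.57.

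Of the marker lists of other cells, myeloid genes summed to 6.11 to 17.1 CPM in ex-Foxp3 and 19.7 to 34.6 in labeled cells, lower in all 5 pairs, with Lyz1, Cd14, S100a8 and S100a9 at 0 in all 10 libraries. Class II and dendritic genes summed to 30.3 to 43.8 and 70.4 to 88.0 CPM, again lower in all 5 pairs, and most of that sum was Cd74, the class II invariant chain, which fell from 63.8 ± 11.2 to 24.5 ± 4.24 CPM (log2 fold change -1.39 ± 0.16). The NK list stayed at or under 1.53 CPM, with 7 of 8 genes at 0 throughout. B cell genes gave 17.6 to 45.7 against 11.9 to 50.3 CPM and CD8 genes 5.34 to 14.6 against 11.8 to 17.7. Thymocyte genes summed to 18.7 to 31.1 against 9.53 to 19.4 CPM, higher in all 5 pairs, with Rag1 and Rag2 at 0 in all 10 libraries and Cd1d1 as the highest member. Stromal genes summed to 187 to 231 against 183 to 254 CPM, mainly Pecam1. The part of these cells in the results was not tested.

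Foxp3 (mm10, chromosome X, 7579676 to 7595243, plus strand) came first, since the sort was made on its GFP reporter. It was at 79.2, 122, 151, 84.3 and 107 CPM in ex-Foxp3 cells and at 387, 399, 397, 428 and 417 CPM in labeled cells. Every ex-Foxp3 library lay below every labeled one, and none was at 0. The log2 fold change was -1.93 ± 0.11 (adjusted p = 9.28e-12), a description of the gate rather than a finding. Uhrf1 itself, intact in these mice, was at 19.4 ± 10.2 CPM in ex-Foxp3 and 50.5 ± 38.2 CPM in labeled cells (-1.25 ± 0.36, adjusted p = 0.0823), lower in 4 of 5 pairs. It was called without control 5 (adjusted p = 0.000536), on controls 1 to 3 alone (0.00103) and with no filter on low counts (1.49e-07). The unfiltered fit used the same 10 libraries, and why its value was so much smaller was not tested. Without the pairing Uhrf1 was not called (adjusted p = 0.432).

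For Foxp3, for Il2ra, which had the smallest p of all genes that fell, and for Themis, the leading gene of the T cell receptor list that rose, the 250 bases before the RefSeq start (GRCm38.p6) are shown, 5′ to 3′ on the gene's strand with each CG, the site of DNA methylation, in capitals. They are chrX:7579426-7579675, chr2:11642542-11642791 and chr10:28668110-28668359, all on the plus strand.
Foxp3: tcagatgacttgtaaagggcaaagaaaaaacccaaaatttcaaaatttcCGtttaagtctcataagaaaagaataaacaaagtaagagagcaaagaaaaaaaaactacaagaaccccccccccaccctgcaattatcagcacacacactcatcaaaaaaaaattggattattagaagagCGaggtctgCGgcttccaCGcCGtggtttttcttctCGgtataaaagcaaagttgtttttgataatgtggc
Il2ra: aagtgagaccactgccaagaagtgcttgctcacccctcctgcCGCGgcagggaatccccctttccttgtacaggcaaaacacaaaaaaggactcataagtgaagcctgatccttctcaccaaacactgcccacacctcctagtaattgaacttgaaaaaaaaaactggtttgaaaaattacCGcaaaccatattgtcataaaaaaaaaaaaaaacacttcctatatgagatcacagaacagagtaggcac
Themis: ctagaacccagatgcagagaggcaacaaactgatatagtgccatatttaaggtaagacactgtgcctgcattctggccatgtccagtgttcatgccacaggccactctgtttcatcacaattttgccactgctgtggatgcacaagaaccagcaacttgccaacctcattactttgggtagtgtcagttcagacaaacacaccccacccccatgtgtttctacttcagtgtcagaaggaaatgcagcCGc
The Foxp3 window held 6 CG, that of Il2ra 3 and that of Themis 1. RefSeq windows were matched by symbol for 6925 of the 9129 genes tested, and the median window of 250 bases held 16 CG. Under 10 CG were found in 25.3% of the windows of all tested genes, in 37.4% of those of genes that rose (150 of 203 genes matched) and in 37.3% of those of genes that fell (198 of 296). CG reads the same on both strands and overlaps no other motif searched. These counts describe the sequence, and no methylation was measured in these libraries.

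Across the 9129 genes tested, 499 were called (5.47%): 203 rose (2.22%) and 296 fell (3.24%) in ex-Foxp3 cells. These shares are the background for the list counts that follow. Genes that rose moved little: their median size was 0.39 on the log2 scale, and 18 of 203 passed 2-fold. Genes that fell moved further, with a median size of 0.73 and 104 of 296 beyond 2-fold. In all 5 pairs the same direction held for 188 of the 203 and 246 of the 296. Ex-Foxp3 and labeled libraries did not overlap at all for 82 and 110 of them, against 131 (1.43%) of all tested genes that lay above and 157 (1.72%) that lay below without overlap. Calls fell to 318 without control 1 (104 rose, 214 fell), to 318 without control 3 (125 and 193) and to 137 without the pairing (50 and 87), all 137 among the 499.

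**Figure D1:**
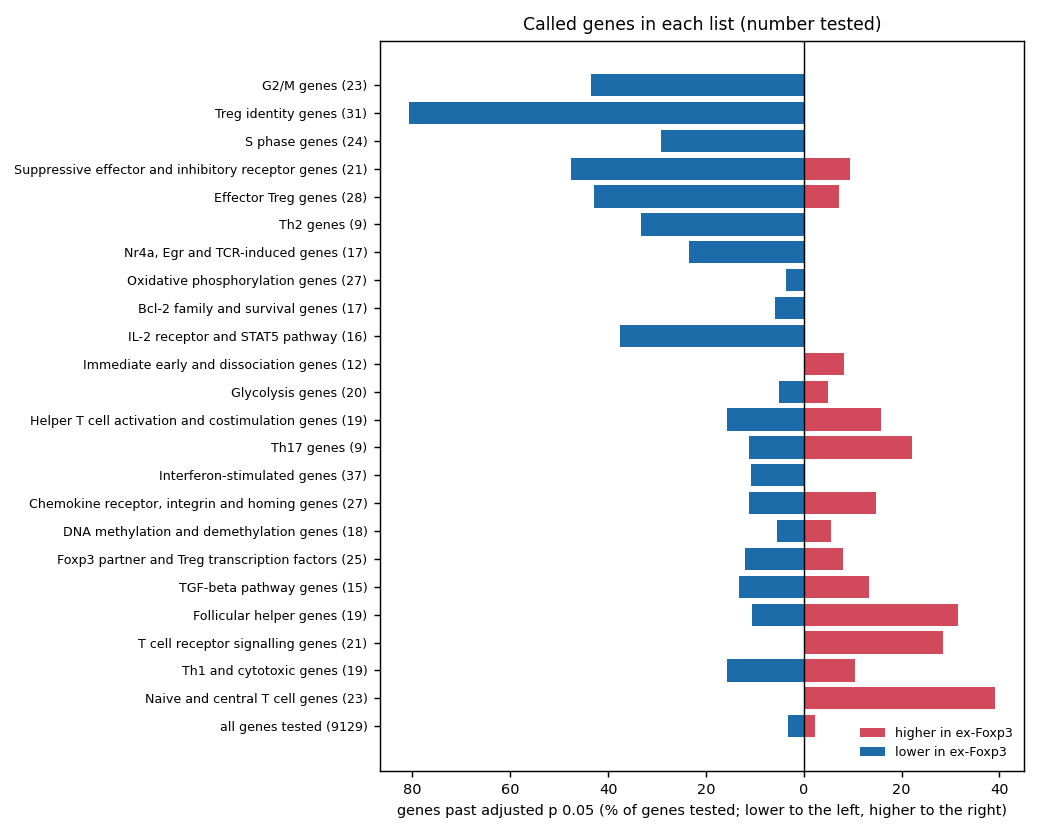
Share of each list's tested genes called higher (red, to the right) or lower (blue, to the left) in ex-Foxp3 cells at an adjusted p under 0.05, in percent, with the number tested in brackets and lists ordered by median log2 fold change. Treg identity genes fell in 25 of 31 cases and naive and central T cell genes rose in 9 of 23, beside 296 and 203 of all 9129 tested genes.

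Treg identity genes had the largest share of calls among the program lists (80.6%, against 5.47% of all genes), although by median the G2/M genes lay further from 0 (-1.08). Of 31 tested members 25 fell and 0 rose, and the median log2 fold change was -0.81 against 0.00 over all genes tested. In all 5 pairs 27 were lower, against 701 of all 9129 genes. For 20 the populations did not overlap, against 157 of all genes (1.72%) that lay below without overlap. The fall was partial and graded in bulk RNA, where fewer cells of a kind and less RNA per cell cannot be told apart. Every member was still read, and the medians of the 5 pairs lay between -0.93 in control 1 and -0.58 in control 3. Lists like this one were chosen with earlier results of these data known.

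Il2ra (chromosome 2, 11642792 to 11693191), the alpha chain CD25 of the high-affinity IL-2 receptor, was at 192, 196, 192, 179 and 200.5 CPM in ex-Foxp3 and at 546, 642, 557, 513 and 468 CPM in labeled cells. Ex-Foxp3 libraries lay in a narrow band well below all labeled ones (-1.50 ± 0.08, adjusted p = 2.11e-16). Itgae, the alpha E integrin CD103 that binds E-cadherin on epithelia, was at 20.9, 59.4, 58.3, 27.1 and 43.9 against 151.5, 174, 223.5, 143 and 169 CPM. The populations did not overlap, and controls 1 and 4 were lowest in both (-2.09 ± 0.13, adjusted p = 5.5e-13). Lrrc32, the surface anchor GARP for latent TGF-beta, was at 25.7, 38.7, 30.6, 52.1 and 57.8 against 113, 117, 113, 171 and 94.9 CPM. It too was lower in every pair without overlap (-1.59 ± 0.15, adjusted p = 8.79e-09).

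Post-tamoxifen cells did not order these genes alike. Their Il2ra (542 to 943 CPM) and Lrrc32 (96.0 to 227) reached the labeled levels or more, whereas their Itgae (12.3 to 26.5) lay below all labeled libraries and partly below ex-Foxp3 ones. These are levels, with no test.

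**Figure D2:**
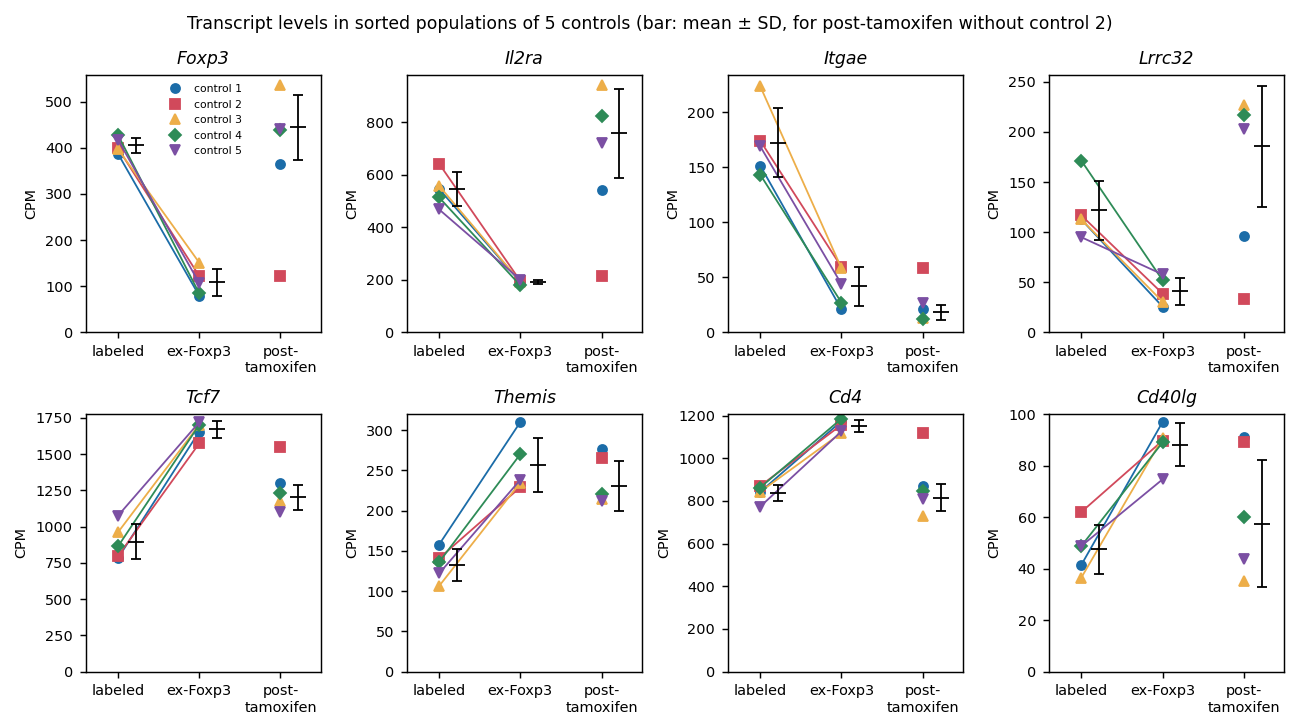
CPM (vertical axis, from 0) of 8 genes in labeled, ex-Foxp3 and post-tamoxifen cells, with 1 symbol per control, lines joining labeled and ex-Foxp3 cells of a control, and black bars for mean ± SD. Foxp3, Il2ra, Itgae and Lrrc32 drop and Tcf7, Themis, Cd4 and Cd40lg climb along every line, and the post-tamoxifen library of control 2 lies at the ex-Foxp3 level for Foxp3 and Il2ra.

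Klrg1, an inhibitory receptor of differentiated T cells, went from 39.6 ± 8.39 to 10.6 ± 2.81 CPM (-1.88 ± 0.22) and Penk, which encodes proenkephalin, from 164 ± 9.38 to 75.4 ± 19.1 CPM (-1.15 ± 0.11). Rgs1, which dampens chemokine receptor signals, fell from 192 ± 33.6 to 100.2 ± 24.7 CPM (-0.95 ± 0.09). The TNF receptor family members Tnfrsf4 (OX40), Tnfrsf18 (GITR), Tnfrsf9 (4-1BB) and Tnfrsf1b (TNFR2), which give Treg cells costimulatory signals, fell by 1.09, 0.79, 0.95 and 0.58 on the log2 scale. Ctla4, which strips costimulatory ligands from antigen-presenting cells, fell from 187 ± 27.4 to 106 ± 21.5 CPM (-0.82 ± 0.10).

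Other members moved less. Nrp1, a surface marker of thymus-derived Treg cells, was at 574 ± 107 against 677 ± 52.8 CPM (-0.26 ± 0.07, adjusted p = 0.0324), and without control 1, whose ex-Foxp3 library held 384 CPM against 604 to 648 in the others, the call was lost, as it was without control 5 (adjusted p up to 0.264). Post-tamoxifen cells held only 158 to 254 CPM of Nrp1, below every labeled and ex-Foxp3 library. Nt5e, the ectoenzyme CD73, fell by 0.27 (adjusted p = 0.0449), a call lost without control 1, 3 or 4 (adjusted p up to 0.281). Ikzf2, which encodes the Treg factor Helios, was at 1051 ± 224 against 1397 ± 151 CPM, lower in all 5 pairs but not called (-0.43 ± 0.12, adjusted p = 0.081). It was called without control 1 (adjusted p = 0.021) or control 5 (0.0104), on controls 1 to 3 alone (0.0101) and with no filter on low counts (8.26e-08). That last value came from the same 10 libraries, and why it was so much smaller was not tested. The log2 ratios of the pairs were uneven, at -1.08, -0.24, -0.46, -0.33 and -0.06, and without the pairing Ikzf2 was not called (adjusted p = 0.138). Itgb8, the integrin beta 8 chain that activates latent TGF-beta, was higher in 3 and lower in 2 pairs (0.25 ± 0.16, adjusted p = 0.449).

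**Figure D3:**
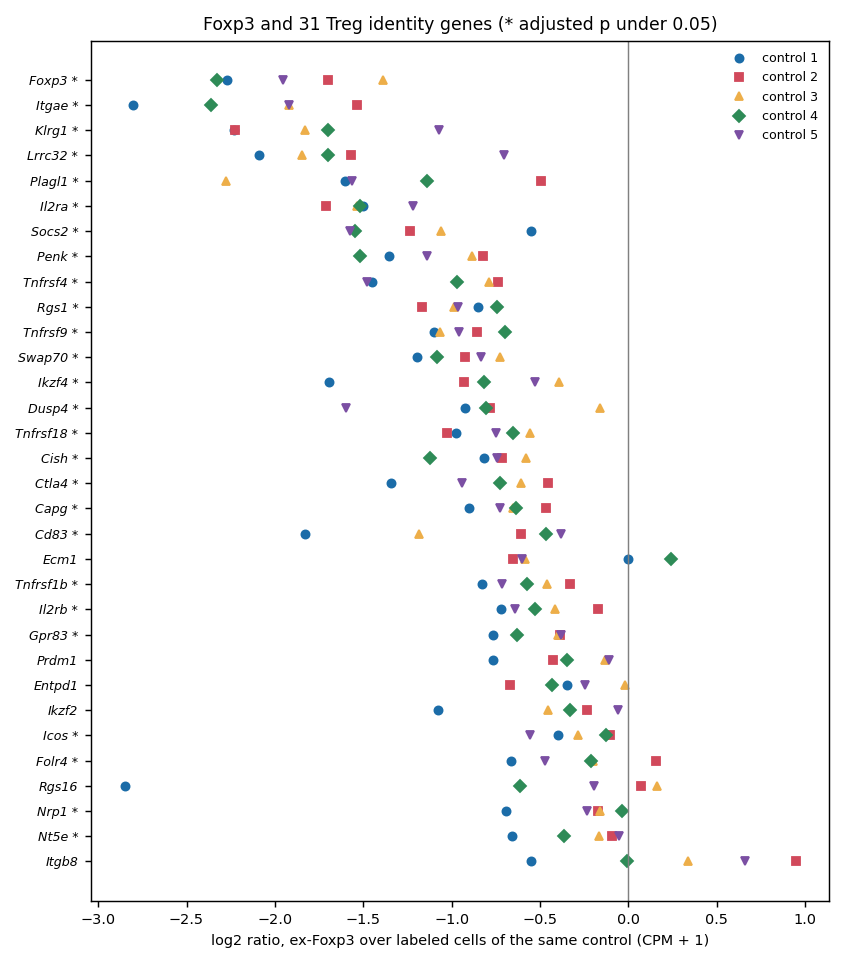
Log2 ratio of ex-Foxp3 over labeled cells of the same control (horizontal axis, CPM + 1) for Foxp3 and the 31 Treg identity genes, 1 symbol per control, with an asterisk for genes at an adjusted p under 0.05. Il2ra points bunch together near the mean of the fit (-1.50), Itgae points spread further, and those of Nrp1 and Nt5e lie nearer to 0, at -0.69 and -0.66 in control 1.

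Of 16 tested genes of the IL-2 receptor and STAT5 pathway, 6 fell and 0 rose (37.5% called, against 5.47% of all genes). The members that fell were Il2ra, the shared beta chain Il2rb (527 ± 63.9 to 374 ± 51.8 CPM, -0.50 ± 0.07), the feedback inhibitors Cish (201 ± 38.8 to 114 ± 11.1 CPM, -0.81 ± 0.09), Socs1 (-0.62 ± 0.18) and Socs2 (36.5 ± 2.98 to 16.2 ± 6.27 CPM, -1.22 ± 0.21), and the survival kinase Pim1 (-0.50 ± 0.09). The call for Socs1 was lost without control 2, 3, 4 or 5 (adjusted p up to 0.239). Socs2 and Cish did not overlap between the populations. Among those not called, the common gamma chain Il2rg gave -0.11 ± 0.07, the kinase Jak1 0.13 ± 0.06, the transcription factors Stat5a and Stat5b -0.24 ± 0.11 and 0.07 ± 0.07, and the survival gene Mcl1 -0.12 ± 0.06 (adjusted p = 0.362). Il2 itself was at or near 0 (0.88 ± 0.79 CPM in ex-Foxp3, 0 in all labeled libraries) and was not tested.

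Suppressive effector and inhibitory receptor genes fell in 10 of 21 cases and rose in 2 (57.1% called, against 5.47% of all genes), with a median of -0.38. Fgl2, a secreted suppressive protein, went from 81.1 ± 11.9 to 35.5 ± 13.4 CPM (-1.23 ± 0.16) and Ebi3, a subunit of IL-35 and IL-27, from 22.5 ± 6.00 to 6.05 ± 3.22 CPM (-1.88 ± 0.34). The protease Gzmb fell from 15.0 ± 6.14 to 2.95 ± 2.44 CPM (-2.52 ± 0.43). Il10 was at 2.19 ± 0.78 and 4.13 ± 3.48 CPM, too low to be tested. Pdcd1, the receptor PD-1, was at 109 ± 46.0 and 102 ± 43.7 CPM (0.09 ± 0.12), and Tigit at 78.3 ± 28.1 and 98.6 ± 18.8 CPM (-0.38 ± 0.12, adjusted p = 0.0556). Tigit was called without control 4 (adjusted p = 0.0398), on controls 1 to 3 alone (0.0396), with no filter on low counts (0.0326) and with a filter at 5 CPM (0.0498).

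The members that rose were receptors that inhibit T cells. Lag3, which binds class II molecules, was at 25.2, 45.8, 55.7, 51.5 and 56.4 CPM in ex-Foxp3 and at 12.4, 10.7, 17.1, 31.5 and 32.2 CPM in labeled cells. It was higher in every pair, and the ex-Foxp3 library of control 1 lay below the labeled ones of controls 4 and 5 (1.23 ± 0.20, adjusted p = 5.51e-05; 0.0535 without the pairing). Btla, which binds the TNF receptor family member HVEM, rose from 107 ± 8.41 to 147 ± 16.9 CPM without overlap (0.45 ± 0.10).

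In the effector Treg list 12 of 28 fell and 2 rose (50% called, against 5.47% of all genes, median -0.38). Klrg1, Itgae, Icos, Tnfrsf4, Tnfrsf9, Tnfrsf18, Lgals1 and Il1rl1 among those that fell also stand in the Treg identity or the suppressive list. Il1rl1, the IL-33 receptor ST2 of tissue Treg cells, was at 13.4, 76.2, 78.7, 17.7 and 53.2 against 146, 228, 229, 147.5 and 161 CPM. Controls 1 and 4 had the lowest ex-Foxp3 levels, as for Itgae, and the populations did not overlap (-2.05 ± 0.33, adjusted p = 0.0308); the call was lost without control 2 or 3 (adjusted p up to 0.0896). S100a4, a calcium-binding protein of motile effector cells, fell by 0.88 ± 0.14. Its call was lost without the pairing (adjusted p = 0.429) and without controls 2 and 3 together. Of the members that rose, Id2, an inhibitor of E proteins, went from 77.7 ± 16.4 to 117 ± 15.8 CPM (0.59 ± 0.11) and Itgb1, the integrin beta 1 chain, gave 0.22 ± 0.07, higher in 4 of 5 pairs. Calls were lost for Itgb1 without control 2, 3, 4 or 5 (adjusted p up to 0.248) and for Icos and Lgals1 without control 1, 3 or 5 (up to 0.168 and 0.0951).

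Of 25 transcription factors listed as Foxp3 partners or as factors of Treg cells, 2 rose and 3 fell (20% called, against 5.47% of all genes). The median was 0.01. Ikzf4, which encodes Eos, a partner of Foxp3 in gene repression, was at 59.97, 100.04, 122, 136 and 143.5 against 196, 191, 160, 241 and 207 CPM (-0.86 ± 0.14, adjusted p = 0.000706). All ex-Foxp3 libraries lay below all labeled ones, and without the pairing the call was lost (adjusted p = 0.0536). Gata3, a Th2 and Treg factor, fell from 293 ± 10.99 to 228 ± 19.3 CPM (-0.37 ± 0.08), and Nfkb1 by 0.24 ± 0.07. Ikzf1, which encodes Ikaros, rose from 370 ± 51.2 to 503 ± 69.9 CPM (0.44 ± 0.07), and Satb1, a chromatin organizer of developing T cells, by 0.47 ± 0.11, a call lost without control 1 (adjusted p = 0.0574). That for Nfkb1 was lost without control 1, 2, 4 or 5 (up to 0.173).

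Naive and central T cell genes rose in 9 of 23 cases and fell in 0 (39.1% called, against 5.47% of all genes), with a median of 0.32. Tcf7, which encodes TCF-1, a factor of naive and memory T cells, was at 1655, 1574, 1702, 1701 and 1719 CPM in ex-Foxp3 and at 783, 797, 961, 864 and 1075 CPM in labeled cells. Ex-Foxp3 libraries were tightly grouped above all labeled ones (0.90 ± 0.07, adjusted p = 3.58e-12), and post-tamoxifen cells lay between (1097 to 1299 CPM). The list as a whole was ordered otherwise. Its 24 genes summed to 10264 to 11444 CPM in post-tamoxifen cells, 8342 to 10747 in ex-Foxp3 and 6727 to 7782 in labeled cells. Sidt1, a transmembrane RNA carrier, rose from 86.3 ± 17.2 to 179 ± 21.97 CPM (1.05 ± 0.10) and Actn1, an actin cross-linker, from 202 ± 20.9 to 334 ± 74.9 CPM (0.71 ± 0.09), both without overlap.

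The other members that rose overlapped between the populations. S1pr1, the receptor that lets T cells leave lymph nodes, rose by 0.41 ± 0.08 (adjusted p = 0.000769, and 0.0918 without the pairing). Lef1, a relative of Tcf7, rose by 0.37 ± 0.08 and Klf2, which drives S1pr1, by 0.33 ± 0.09; the call for Lef1 was lost without control 1 (adjusted p = 0.069) and that for Klf2 without control 1, 3 or 4 (up to 0.201). Several hallmark naive genes were not called. Ccr7, the lymph node homing receptor, was higher in all 5 pairs (0.47 ± 0.18, adjusted p = 0.18), with 236 CPM in the ex-Foxp3 library of control 1 and 99.9 to 137 in the other 4. Il7r gave 0.18 ± 0.08 and Bach2, a repressor of effector genes, 0.32 ± 0.10 (adjusted p = 0.0524). Bach2 was called without control 4 (adjusted p = 0.0309), with upper quartile factors (0.0473) and with no filter on low counts (0.0251), and that last setting also called Ccr7 (0.000502). Without the pairing neither was called (adjusted p = 0.34 for Bach2 and 0.383 for Ccr7). Leaving out control 1 cut the called members from 9 to 4, and leaving out controls 2 and 3 together raised them to 12.

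T cell receptor signalling genes rose in 6 of 21 cases, and 0 fell (28.6% called, against 5.47% of all genes, median 0.12). Themis, a regulator of receptor signal strength in developing T cells, was at 310, 229, 235, 270 and 238 CPM in ex-Foxp3 and 158, 141, 106, 136 and 122 CPM in labeled cells, without overlap (0.95 ± 0.09, adjusted p = 1.04e-09). Cd4, the coreceptor, was at 1174, 1157, 1119, 1185 and 1126 against 842, 870, 843, 863 and 774 CPM. Both populations were narrow and apart (0.46 ± 0.06, adjusted p = 4.55e-06), and 4 post-tamoxifen libraries (728 to 872 CPM) lay at the labeled level. Cd247, the receptor zeta chain, rose by 0.39 ± 0.08.

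Genes that the receptor induces moved the other way or did not pass. Of 17 tested, 4 fell and 0 rose (median -0.29). These were Myc (86.7 ± 9.26 to 53.1 ± 12.8 CPM, -0.72 ± 0.12), the NF-kB inhibitor Nfkbia (226 ± 36.3 to 158 ± 9.98 CPM, -0.51 ± 0.09), Tnfrsf9 and Cd83, a maturation marker (-0.89 ± 0.16). Egr1, an immediate early factor, was at 138 ± 17.5 and 121 ± 8.69 CPM (0.18 ± 0.10). In the list of immediate early genes, which cell dissociation also raises, 1 of 12 rose (8.33%, against 5.47% of all genes), and the median was -0.11. That gene was Btg2 (0.26 ± 0.08), a call lost without control 1, 3, 4 or 5 (adjusted p up to 0.165).

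Costimulation and follicular helper genes gave calls in both directions. In the helper costimulation list 3 of 19 rose and 3 fell (31.6% called, against 5.47% of all genes, median -0.07). In the follicular helper list 6 of 19 rose and 2 fell (42.1% called, median 0.09). Those 2 were Icos (-0.30) and Folr4 (-0.28), and neither was called without control 1, 3 or 5 (adjusted p up to 0.266) or by DESeq2. Csf1 (-0.91, adjusted p = 0.000836), Cd81 (-0.77, 0.00101) and Lta (-0.87, 0.0133) were those that fell in the costimulation list. The call for Lta was lost without control 3, 4 or 5 (adjusted p up to 0.0926). Tnfsf8 rose in both lists (0.31), a call lost without control 2, 3 or 4 (up to 0.222). Cd40lg, the ligand through which helper T cells activate B cells, was at 96.9, 89.7, 90.6, 89.0 and 74.7 CPM in ex-Foxp3 and 41.5, 62.0, 36.5, 48.8 and 48.8 CPM in labeled cells. It was higher in every pair without overlap (0.91 ± 0.13, adjusted p = 1.61e-05). Cd28, the main costimulatory receptor, rose from 293.5 ± 55.7 to 418 ± 62.8 CPM (0.51 ± 0.07) and St8sia1, a ganglioside sialyltransferase, from 68.7 ± 9.02 to 126 ± 40.7 CPM (0.85 ± 0.12), with 199 CPM in control 1 and 106 to 109 in the others.

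Slamf6, a homophilic receptor at T and B cell contacts, rose by 0.47 ± 0.08. Cxcr5, the receptor that guides cells into B cell follicles, was at 62.1, 80.7, 71.5, 130 and 150.5 against 48.2, 40.2, 44.6, 84.5 and 106 CPM. Controls 4 and 5 were highest in both populations, and within each pair the ex-Foxp3 library was higher (0.62 ± 0.12, adjusted p = 0.00066; 0.535 without the pairing). Bcl6, the defining follicular helper factor, was at 72.7 ± 17.6 and 73.7 ± 30.0 CPM (0.02 ± 0.13).

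Effector cytokine genes of the Th2 and Th17 lists were too low to be compared. Of the Th2 list 4 of 13 members (Il4, Il5 and Il13 among them) and of the Th17 list 7 of 16 (Il17a, Il17f and Il22 among them) were not tested for this reason. Of the Th1 and cytotoxic list 8 of 27 were too low, Gzma, Prf1 and Ccl3 among them, but the cytokine genes Ifng and Tnf were tested. Among tested Th1 and cytotoxic genes 2 of 19 rose and 3 fell (26.3% called, against 5.47% of all genes, median 0.26). Ccl5, a chemokine of memory and cytotoxic T cells, was at 34.0 ± 16.0 against 17.8 ± 4.76 CPM (0.87 ± 0.21, adjusted p = 0.00711), and Stat4, which relays IL-12, at 225 ± 20.1 against 184 ± 22.6 CPM (0.29 ± 0.08). The call for Ccl5 was lost without control 2 or 3 (adjusted p up to 0.0968) and that for Stat4 without control 1, 2, 3 or 5 (up to 0.139). Among those that fell, Il12rb1 (-0.48, adjusted p = 0.0482) lost its call without any 1 control (up to 0.146). Ifng was at 8.57, 7.75, 5.96, 11.5 and 4.07 against 4.52, 2.68, 4.51, 2.69 and 0.87 CPM, higher in all 5 pairs but not called (1.29 ± 0.48, adjusted p = 0.12).

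Tbx21, which encodes the Th1 factor T-bet, was at 30.7 ± 9.96 and 19.1 ± 5.78 CPM, higher in 4 of 5 pairs (0.63 ± 0.22, adjusted p = 0.0991). It was called without control 1 (adjusted p = 0.0297) and on controls 4 and 5 alone (0.0165). Hopx, a cofactor of effector T cells, fell from 53.2 ± 4.46 to 33.3 ± 8.41 CPM without overlap (-0.69 ± 0.16). Of 9 tested Th2 genes 3 fell and 0 rose (Gata3, Il1rl1 and the chemokine receptor Ccr4, -0.48 ± 0.12), with a median of -0.37. In the Th17 list 2 of 9 rose, the ion channel gene Tmem176b (1.83 ± 0.50) and the cytokine receptor chain Il6st (0.32 ± 0.08), and the ligand-activated factor Ahr fell (-0.51 ± 0.13; the median was -0.06). Calls were lost for Ccr4 without control 1 or 3 (adjusted p up to 0.0673), for Tmem176b without control 1, 4 or 5 (0.106), for Il6st without control 1 (0.102) and for Ahr without control 1 or 4 (0.0936).

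Homing and TGF-beta receptors changed unequally. In the chemokine receptor, integrin and homing list 4 of 27 rose and 3 fell (25.9% called, against 5.47% of all genes, median -0.01). Itga4, the alpha 4 integrin chain for entry into inflamed tissue, was at 2135, 2324, 2185, 2352 and 2374 against 1563, 1313, 1392, 1771 and 1562 CPM, without overlap (0.58 ± 0.06, adjusted p = 6.16e-08), and post-tamoxifen cells (1021 to 1144 CPM) lay below both. Ccr2, the receptor for monocyte chemoattractants, was at 25.2, 85.8, 73.6, 41.1 and 27.0 against 106, 231, 168.5, 83.0 and 61.8 CPM. Controls 2 and 3 were highest in both populations, and every pair fell (-1.37 ± 0.13, adjusted p = 2.27e-09; 0.292 without the pairing).

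Of 15 tested TGF-beta pathway genes 2 rose and 2 fell (26.7% called, against 5.47% of all genes, median 0.06). Tgfbr2 rose from 355 ± 24.7 to 476 ± 50.6 CPM (0.42 ± 0.07) and the coreceptor Tgfbr3 from 37.7 ± 6.34 to 81.1 ± 35.8 CPM (1.05 ± 0.16). Tgfbr1, the signalling kinase that pairs with Tgfbr2, fell from 149 ± 17.1 to 105 ± 12.3 CPM (-0.51 ± 0.10), beside the fall of Lrrc32. For Tgfbr3 the ex-Foxp3 library of control 1 held 144 CPM and the others 51.7 to 73.6.

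Cell division genes were lower in ex-Foxp3 cells chiefly in 3 of the 5 mice. S phase genes fell in 7 of 24 cases (29.2%) and G2/M genes in 10 of 23 (43.5%), against 5.47% of all genes called. The medians were -0.54 and -1.08, and 0 rose. The summed level of the 30 G2/M genes was 391, 996, 1006, 358 and 399 CPM in ex-Foxp3 and 1464, 2038, 2451, 415 and 422 CPM in labeled cells. Labeled cells of controls 1 to 3 stood high, and those of controls 4 and 5 lay at the level of the lowest ex-Foxp3 libraries. S phase sums ran the same way, at 937, 1001, 1026, 757 and 849 against 1229, 1559, 1752, 795 and 857 CPM.

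Fitted on controls 1 to 3, 9 of 28 S phase and 20 of 29 G2/M genes tested fell, with medians of -0.92 and -1.46. On controls 4 and 5, 0 of 21 and 0 of 16 did, with medians of -0.07 and -0.22. That fit had fewer pairs and called 175 of all 9157 genes it tested, against 387 of 9203 on controls 1 to 3. Whether the change differed between these sets of mice was not tested, and no label names a batch for them. Without the pairing 0 genes of either list were called. Nusap1, a spindle protein, was at 4.28, 12.3, 9.36, 1.56 and 6.68 against 35.4, 45.5, 50.9, 3.07 and 11.3 CPM (-1.99 ± 0.29, adjusted p = 1.48e-05). Tpx2, another spindle factor, gave -1.56 ± 0.27, the replication helicase subunit Mcm5 -0.90 ± 0.15 and the DNA polymerase epsilon subunit Pole -1.28 ± 0.23. Mki67, the usual proliferation marker, was at 98.0, 354, 360.0, 110 and 154 against 509.5, 724, 902, 155 and 152 CPM, and was not called (-1.08 ± 0.37, adjusted p = 0.255).

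**Figure D4:**
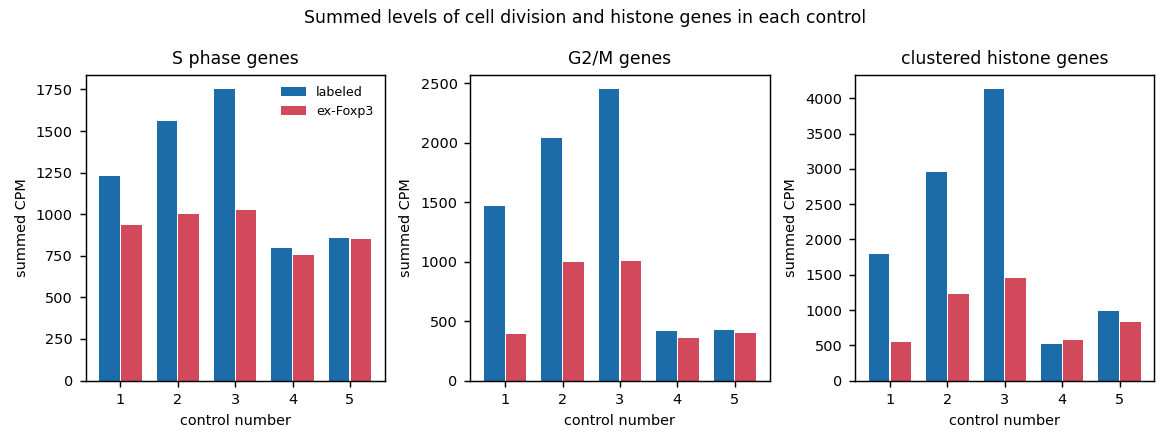
Summed CPM (vertical axis, from 0) of S phase, G2/M and clustered histone genes in labeled (blue) and ex-Foxp3 cells (red) of each control. Labeled bars stand well above ex-Foxp3 bars in controls 1 to 3 (G2/M sums of 1464 to 2451 against 391 to 1006 CPM), and the bars are close in controls 4 and 5.

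The remaining lists held few calls. Among DNA methylation and demethylation genes 1 of 18 rose, the oxygenase Tet3 (0.26 ± 0.07, a call lost without control 1, 2, 3 or 5, adjusted p up to 0.132), 1 fell, the chromatin remodeler Hells (-0.55 ± 0.15, lost without control 1, 3 or 5, up to 0.152), and the median was 0.00. Dnmt1, the maintenance methyltransferase that Uhrf1 recruits, was at 296 ± 36.7 and 323 ± 51.1 CPM (-0.12 ± 0.07). In glycolysis 1 of 20 fell, the glucose transporter Slc2a3 (104 ± 17.4 to 60.4 ± 11.5 CPM, -0.78 ± 0.14), and Pdk1, which slows entry of pyruvate into mitochondria, rose by 0.43 ± 0.12 (lost without control 1 or 3, up to 0.32); the median was -0.09. Oxidative phosphorylation gave 1 of 27 (Uqcrb, -0.56 ± 0.13, median -0.15), and the Bcl-2 family 1 of 17, the survival gene Bcl2l1 (-0.61 ± 0.15, lost without control 4, adjusted p = 0.0693, median -0.14); both shares are near the background of 5.47%. Of 37 interferon-stimulated genes 4 fell (10.8%, against 5.47% of all genes), all guanylate-binding proteins, and the list median was -0.05. The call for Gbp2 was lost without control 3, 4 or 5 (adjusted p up to 0.248) and that for Gbp6 without any 1 control (up to 0.133), so that 2 fell without control 3 or without control 4.

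Outside the lists, among genes whose log2 CPM averaged 4 or more, Hs3st3b1, a heparan sulfate sulfotransferase, rose from 11.6 ± 4.93 to 31.9 ± 8.05 CPM (1.46 ± 0.25), Emp1, a membrane protein, from 20.5 ± 3.51 to 42.2 ± 7.003 CPM (1.04 ± 0.19) and Gpm6b, a proteolipid, from 36.9 ± 10.2 to 73.6 ± 13.7 CPM (1.01 ± 0.16). Vipr1, a receptor for vasoactive intestinal peptide, went from 34.0 ± 9.43 to 67.0 ± 22.3 CPM (0.95 ± 0.15), and Pde7a, a cyclic nucleotide phosphodiesterase, from 75.5 ± 24.0 to 151 ± 38.1 CPM (1.02 ± 0.11; adjusted p = 0.0615 without the pairing). Of genes that fell, Dnahc7a, an axonemal dynein heavy chain, went from 30.8 ± 6.07 to 7.75 ± 2.75 CPM (-1.98 ± 0.25).

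In Uhrf1fl/fl mice, which share no library with the controls, the same contrast called 1000 of 9148 genes (10.9%): 412 rose (4.5%) and 588 fell (6.43%). Of the 203 genes that rose in controls 201 were tested there, 199 of them with the same sign (99%) and 150 called in the same direction (74.6%, or 36.4% of the 412). Of the 296 that fell 285 were tested, 277 with the same sign (97.2%) and 194 called (68.1%, or 33% of the 588). Over all genes tested in both, 50.5% rose or 49.5% fell in fl/fl mice whatever their call.

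A test of the difference between genotypes called 1 of 9613 genes (0.0104%), with 469 at an unadjusted p under 0.05. This was Gcnt1, a glycosyltransferase that builds branched O-glycans on T cell surface proteins. In controls it was at 9.10, 12.9, 14.0, 11.97 and 13.1 against 22.99, 31.4, 38.8, 20.4 and 20.04 CPM, without overlap (-1.10 ± 0.23). In fl/fl mice it was at 20.9 to 91.3 CPM in ex-Foxp3 and 26.7 to 59.6 in labeled cells (0.38 ± 0.17, adjusted p = 0.143), and the difference was 1.49 ± 0.28 (adjusted p = 0.0236). Without the pairing 0 genes were called.

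Of the 31 Treg identity genes 30 were lower in both genotypes, 27 of them called lower in fl/fl mice, and Itgb8 had opposite signs. Il2ra gave -1.50 in controls and -2.07 in fl/fl mice, where it stood at 89.6 to 139 CPM in ex-Foxp3 cells (difference -0.56 ± 0.12, adjusted p = 0.236). Foxp3 gave -1.93 and -2.78 (difference -0.84 ± 0.43, adjusted p = 0.997), and Tcf7 0.90 and 1.08. Ccr2 and Lag3 were called in controls and gave -0.17 ± 0.16 and 0.14 ± 0.19 in fl/fl mice, but the differences were not called (1.20 ± 0.23, adjusted p = 0.306, and -1.08 ± 0.30, adjusted p = 0.527). S100a4, also called in controls, gave -0.09 in fl/fl mice, and its difference was not called either (0.79 ± 0.19, adjusted p = 0.306).

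**Figure D5:**
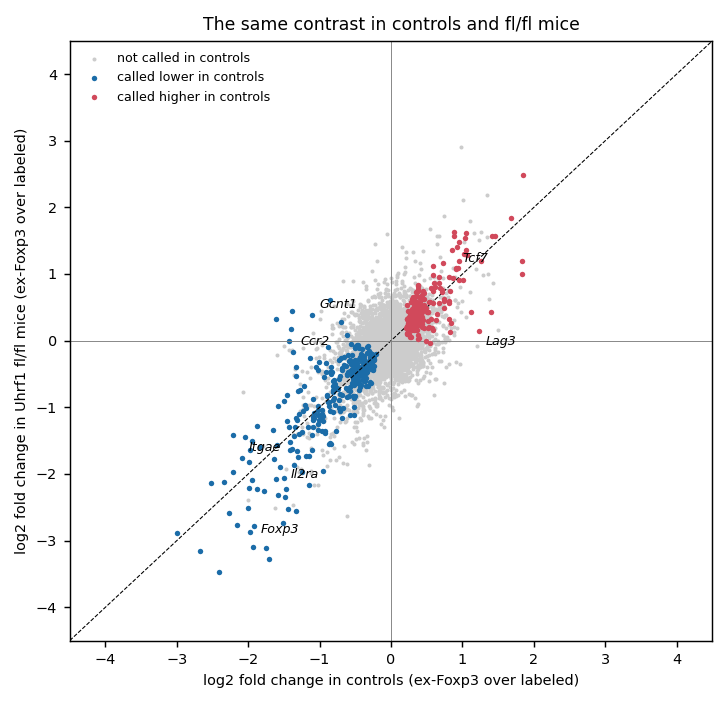
Log2 fold change of ex-Foxp3 over labeled cells in controls (horizontal axis) and in Uhrf1fl/fl mice (vertical axis), 1 point per gene tested in both, coloured by the call in controls, with a dashed line of equality. Of the genes that fell in controls 277 of 285 lie below 0 on the vertical axis and of those that rose 199 of 201 lie above it, and Gcnt1 is the gene whose difference was called.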

How the data were processed

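RNA of sorted cells came from the AllPrep Micro kit and was sequenced as SMARTer Stranded Total RNA-Seq libraries, per the labels' protocols. The submitters' processing notes name bcl2fastq 2.17.1.14, TopHat2 2.1.0 and the build mm10 (GRCm38). Values are raw read counts as deposited by the authors in 1 table of 19434 genes, whole and not normalized. The annotation, strand setting and counting settings are not given in the sources used here, so reads of overlapping antisense genes and of near-identical copies, such as the clustered histone genes, cannot be told apart. The 13 mitochondrial genes hold 0 counts.

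The fit used edgeR 4.0.16 in R 4.3.3 on the 10 libraries: TMM factors, the default expression filter by population, a robust quasi-likelihood fit with the control number as a block, 2-sided F-tests, and Benjamini-Hochberg adjustment over all 9129 genes tested at 0.05. The common biological coefficient of variation was 0.121. The fl/fl contrast (12 libraries) was fitted alike, and the genotype difference as an interaction over 22 libraries with the animal as a block. CPM are scaled over the 33 pulse-chase libraries. The labels call the libraries biological replicates. Same-numbered libraries deviated together (correlations of 0.144 to 0.295, all above 0.1), although control 2 correlated more with another number, at 0.249, than with its own, at 0.199. Y-linked reads matched within each number, but cannot tell controls 2 and 3 apart, nor controls 1, 4 and 5. No pair of libraries in a population agreed within sampling noise (chi-square per degree of freedom of at least 2.60). In bulk RNA, fewer cells of a kind and less RNA per cell cannot be told apart.

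The comparison, the lists and the tests were chosen with earlier results of these data known, and the lists share genes. The naming rule took Foxp3, Uhrf1, the 10 largest calls in each direction (mean log2 CPM of at least 4, the same direction in all pairs) and, per list, 4 called genes by smallest p and 2 uncalled ones by level. Other names, among them Pim1, Il2rg, Stat5a, Stat5b, Btla, Tigit, Ebi3, Il10, Nrp1, Nt5e, Lef1, Klf2, Ccr7, Il7r, Bach2, Bcl6, Tbx21, Ifng, Gcnt1, Cd74 and all of the closing section, were chosen after their values were seen. Some genes are not reported here. On simulated counts the fit recovered 97 of 100 genes changed 2-fold and 100 of 100 changed 4-fold, with 10 false calls over 9133 genes. The simulation gave every gene the common coefficient of variation and each changed gene the same fold in all pairs. It therefore does not give the recovery for genes with a larger spread or with changes that differ between pairs, such as cell division genes. Alternatives were other scaling factors and filters, DESeq2 1.42.0, no block, fits of all pulse-chase libraries, and leaving out each pair or sets of pairs. Fits of all pulse-chase libraries but the one labelled post-tamoxifen of control 2 were added after seeing the data. Promoter windows came from RefSeq GRCm38.p6. Python 3.11.15 with pandas 2.3.3 and matplotlib 3.10.9 made the figures.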

Additional observations from a re-analysis of the deposited data

Results flagged for a closer look

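Levels of the named genes and the marker sums were checked in 244 sets of 5 libraries for 1 library far from the other 4, which chance alone gives in about 1 of 20 sets, and 20 were found. In the ex-Foxp3 library of control 1, Tnfrsf4 was at 47.1 CPM (others 101 to 110) and Nrp1 at 384 (604 to 648), both low. High in that library were Ccr7 at 236 CPM (99.9 to 137), St8sia1 at 199 (106 to 109), Tgfbr3 at 144 (51.7 to 73.6), Hs3st3b1 at 46.1 (26.4 to 30.7), Vipr1 at 107 (53.8 to 62.1) and the erythroid and platelet sum at 22.98 (0 to 1.57). In ex-Foxp3 cells, Slc2a3 was at 40.02 CPM in control 2 (62.8 to 66.9), and control 4 held Gata3 at 194 (231 to 242) and the stromal sum at 187 (219 to 231). In labeled cells, Lrrc32 was at 171 CPM in control 4 (94.9 to 117), Stat4 at 222 in control 4 (165 to 180), Ccr7 at 131 in control 3 (86.3 to 95.3), Cd4 at 774 in control 5 (842 to 870), Nfkbia at 290.1 in control 5 (202 to 213), Btg2 at 269 in control 2 (215 to 228), Socs1 at 61.0 in control 5 (41.1 to 43.0), Uqcrb at 96.0 in control 3 (61.9 to 71.4) and the erythroid and platelet sum at 2.69 in control 1 (0 to 0.78). The change of Gcnt1 differed between genotypes by 1.49 on the log2 scale, fl/fl minus controls. The cause of none of these was tested.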

How the results depend on the processing

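With the replicate block, other scaling factors, filters and DESeq2 moved the 499 calls by under 1.5 times, except that DESeq2 gave 124 higher genes. No replicate block gave 137 calls (50 higher, 87 lower). All 33 libraries gave 35 (19 and 16) without and 211 (85 and 126) with the block, and 59 (28 and 31) and 279 (105 and 174) without the library labelled post-tamoxifen of control 2. Leaving out 1 pair gave 318 to 430 calls (104 to 156 higher, 193 to 277 lower). Controls 1 to 3 alone gave 126 higher genes, controls 4 and 5 alone 175 calls (69 and 106), and the 3 controls without Y-linked reads 326 (175 lower). The genotype difference gave 0 genes with no block and 25 with no filter on low counts. Of 151 called genes with values given here or in the lists, 10 stayed called under every alternative. These were Foxp3, Sidt1, Themis, Il2ra, Socs2, Tnfrsf18, Tcf7, Cd4, Tgfbr2 and Gbp3. Among those 151 the only sign change was Hist1h1b in controls 4 and 5 alone (log2 fold change 0.032). The cause of these shifts was not tested. With 1153730 counts in the shallowest library, the effector cytokine genes of the Th2 and Th17 lists were too low to be compared.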

Other observations

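Some further gene families were looked at after their values were seen, so the counts describe and test nothing. Most called guanylate-binding and TNF receptor genes already stand in the interferon-stimulated and Treg identity lists. Clustered histone genes, which are made in S phase, fell in 20 of 36 tested cases (68 are in the table) with a median log2 fold change of -1.48. Their summed level was 541, 1233, 1454, 579 and 836 CPM in ex-Foxp3 and 1793, 2962, 4132, 517 and 980 CPM in labeled cells of controls 1 to 5, so the labeled cells of controls 1 to 3 stood apart as they did for cell division genes. Hist1h2af was at 0, 16.8, 20.4, 1.04 and 0.58 CPM in ex-Foxp3 and 35.4, 84.6, 95.1, 3.07 and 5.23 CPM in labeled cells (-2.68 ± 0.34). In controls 1 to 3 alone 36 of 44 tested histone genes fell, and in controls 4 and 5 alone 0 of 22 did. Without the pairing 0 fell.

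Guanylate-binding protein genes, which act against microbes inside cells, fell in 5 of 10 cases (median -0.35; 3 of 10 without control 3 or without control 4), although the interferon-stimulated genes as a whole had a median of -0.05. Gbp3 was at 78.7, 88.4, 102, 92.1 and 84.6 against 131, 160, 157, 128 and 152 CPM, without overlap (-0.71 ± 0.10, adjusted p = 1.01e-05), and Gbp7 went from 304 ± 30.8 to 233 ± 21.2 CPM (-0.39 ± 0.08). Among TNF receptor superfamily genes 5 of 11 fell and 0 rose (median -0.39), and the receptor gene Tnfrsf8 (CD30) was at 6.56 ± 2.26 against 20.8 ± 7.05 CPM (-1.62 ± 0.31). Cytosolic ribosomal protein genes gave 12 of 80 that fell and 0 that rose (median -0.15), with sums of 38487 to 47768 CPM in ex-Foxp3 and 38732 to 58121 in labeled cells, lower in all 5 pairs. Rplp1 gave -0.37 ± 0.07 and Rpl22 -0.36 ± 0.07, and without the pairing 0 ribosomal genes were called. Without control 3, 5 fell, and without controls 2 and 3 together 3 fell and 1 rose (median -0.06). Of 9 cyclic nucleotide phosphodiesterase genes Pde7a and Pde3b (0.95 ± 0.17) rose and Pde2a fell (-0.32 ± 0.10), with a median of 0.14, and the call for Pde2a was lost without any 1 of the 5 controls (adjusted p up to 0.13).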
